A study of Solanum tuberosum with 12 samples.

Results

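The set described here is 65 miRNA sequences of potato (Solanum tuberosum) tubers that the authors annotated with a miRNA name first given in another species. An entry of the deposited table was a member if its name was neither a potato name nor a predicted one, if its family number was outside a list of well-known plant miRNA families, and if it had at least 50 counts over the 12 libraries. The table holds 7827 entries with 5730 distinct sequences, of which 935 entries have names from other species and 765 of these lie outside the listed families. A total of 698 of those 765 had under 50 counts, and the 67 that were left hold 65 distinct sequences. Members were thus chosen by their total count, which is described without a test, and no difference between cultivars entered the choice.

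The study sequenced small RNA of tubers from 4 potato cultivars, with 3 libraries for each of Black kingkong and Red beauty, as well as Longshu No.7 and LK99. All 4 cultivars were grown at the same station under the same conditions, and tubers were sampled at an age of 150 days. The stated subject of the study is miRNAs in the synthesis of anthocyanins, the red to blue plant pigments, and the comparison asked here is whether tubers of the cultivars differ in these miRNAs. The labels give neither tuber colour nor genotype beyond the cultivar name, and do not say that the 3 libraries were made from different plants. P-values then measure only how these libraries scatter, which may be technical.

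Plant miRNAs are cut from hairpin transcripts by a Dicer-like enzyme and direct an Argonaute protein to mRNAs with near-perfect complementarity. Names in miRNA registries are given by sequence likeness, so a sequence counted in potato can carry the name of a miRNA first described in rice, tomato or a moss, and some registered names belong to sequences that are fragments of other RNAs. Mature tRNAs end in the letters CCA at the 3′ end, and fragments with that end are common in small RNA libraries. The endings x, y and z are part of the deposited names.

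The most abundant members and the members that differed most firmly among the cultivars are shown first, because the values below are theirs. Sequences are printed 5′ to 3′ in DNA letters as the deposited table has them, and the capitals mark the seed, bases 2 to 8.
miR1919-y: cGAGAGTCatctgtgacagga
miR9470-y: tTTGGCTCacggattttagc
miR5168-y: tCTCGGACcaggcttcactcc
miR10533-x: tCTTATGAattctaggtcttct
miR5244-y: tGTCTCAAgaagattgttggt
miR477-y: aGTTCTTGtagggtgagacaac
miR394-x: tCTTTGGCattctgtccacct
miR9473-x: tTGGCTGTaaatctaaactcg
miR9474-x: tGTAGAAGtcatgaataaaatg
miR10539-y: cTTGGAACcacagttaccacc
miR10986-x: cTTGGGACcaaagtcaccaac
miR10540-y: tATAATAActattagttgact
miR10535-x: tTGGCATAagtttgtgaaagac
miR5538-x: cTACTGAActcaatcacttgct
miR1873-x: tTAACATGgtatcagagcagg
The 65 members have 64 distinct seeds, and the only shared seed, GCTCTGA, is that of miR1863-y and miR845-x. Of the 65, 28 (43.1%) are 21 nt long, against 27.5% of the other 5665 distinct sequences of the table, and 1 (1.54%) is 23 nt long, against 29.8%. A first base of T was found in 34 members (52.3%), against 43.8% of the other sequences. Here and below, the other sequences had no limit on counts, and 6595 of the 7827 entries of the table are predicted ones. The 2 sets are thus unlike in more than their names.

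A sequence feature that the selection did not use was the ending CCA, held by 10 members (15.4%) and by 51 of the other 5665 sequences (0.900%). Of the 10, 8 are shorter than 20 nt, a combination found in 6 other sequences (0.106%). The 10 are shown with the final CCA in capitals, or with the longer shared core described next where they hold it.
miR894-x: tttcacgtcgggttcaCCA
miR5077-x: ttcttcacgtcgggttcaCCA
miR5139-x: aacctggCTCTGATACCA
miR845-y: aaacctgCTCTGATACCA
miR8175-y: tccccggcagcggcgCCA
miR5054-y: tccccacagacggcgCCA
miR5072-x: tccccagtgaagtcgCCA
miR5059-x: tcctgggcagcaacaCCA
miR8569-y: atccggtaggtcggaCCA
miR10534-x: ccaaaatacccttgtcatCCA
Among these, miR894-x and miR5077-x share their last 18 nt. The sequence of miR5139-x is also listed as miR8155-y and miR1511-y, with totals of 7753, 5779 and 5355 counts, and miR5139-x stands for all 3 here.

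A core of 11 letters, CTCTGATACCA or its reverse complement TGGTATCAGAG, was held by 8 members (12.3%) and by 8 of the other sequences (0.141%). The core was taken from members, as the longest run shared by miR829-y, miR5139-x and miR845-x, so its higher share among members is partly built in. It is the core of miR845, which in Arabidopsis pollen pairs with the primer binding sites of retrotransposons, where the 3′ end of a tRNA starts reverse transcription. Besides miR5139-x and miR845-y above, the following hold it, in capitals.
miR845-x: tgCTCTGATACCActtgttggg
miR845-z: gCTCTGATACCActtgttggg
miR829-y: CTCTGATACCAattgatagaat
miR1863-y: tgCTCTGATACCAtgttaaatt
miR7782-y: gccctgCTCTGATACCAtgtt
miR1873-x: ttaacaTGGTATCAGAGcagg
All carry the core itself except miR1873-x, which carries the reverse complement. The sequence of miR845-z lies whole within that of miR845-x.

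A shorter motif, GAGGGA or its reverse complement TCCCTC, was held by 7 members (10.8%) and by 60 other sequences (1.06%), in capitals below.
miR5049-y: caagtaattagggacaGAGGGAgt
miR5205-x: gtaattagggacaGAGGGAgt
miR6164-y: cacataaattggaacaGAGGGA
miR1120-y: gacttataatatgggacgGAGGGA
miR5281-y: catataaataggaacgGAGGGAgt
miR477-x: tgtctcTCCCTCaagggcttc
miR1446-x: tgaactctcTCCCTCaatggct
The first 5 hold GAGGGA near the 3′ end, and miR5205-x lies whole within miR5049-y. The last 2 hold TCCCTC in the middle and share a run of 12 nt. A match of letters is a description of the sequence and shows neither its origin nor a site. All these features, the ending CCA included, were chosen after the members had been seen. Their shares among members and other sequences are therefore a description and not a test.

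The 12 libraries held 5605168 to 7354483 counts, and the members took 0.269 to 0.509% of them. The share was 0.450% ± 0.0518 for Black kingkong, 0.323% ± 0.0235 for Red beauty, 0.317% ± 0.0425 for Longshu No.7 and 0.463% ± 0.0198 for LK99 (SD, n = 3). These are shares of the counts as deposited. Levels are given as CPM, the counts per 1000000 counts of a library after TMM scaling, and in bulk tissue fewer cells with a miRNA and less of it per cell cannot be told apart. Replicate 3 of Longshu No.7 and replicate 3 of LK99 stood apart from the other libraries. Over the tested entries, which are not independent replicates, Pearson's r of log2 CPM between them and their own cultivar was 0.861 to 0.865 and 0.902 to 0.924, against 0.957 to 0.974 between the other libraries of a cultivar. On the CPM scale the members summed to 4653 ± 1069 for Black kingkong, 3746 ± 627 for Red beauty, 3414 ± 886 for Longshu No.7 and 3745 ± 347 for LK99 (SD, n = 3), so the order of the cultivars depends on the scaling: LK99 had the highest share of counts but not the highest sum. What sets the 2 libraries apart was not tested, and for several members results are given with and without them.

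The counts were concentrated in few members. A total of 4 members held 82.1% of the members' counts, with 33.1% in miR894-x, 29.8% in miR1919-y, 12.8% in miR9470-y and 6.44% in miR5168-y, while the median member had a total of 355. miR894-x, a moss-named sequence with the CCA end, had 1344, 1671 and 2429 CPM in the Black kingkong libraries, 1215, 1011 and 1385 in those of Red beauty, 813, 924 and 1391 in those of Longshu No.7, and 888, 1112 and 1363 in those of LK99. Its level was highest in Black kingkong, but the lowest Black kingkong library lay below the highest library of every other cultivar. miR1919-y, a name from tomato, had 1002, 1289 and 1589.5 CPM in the Black kingkong libraries, 1111, 1046 and 1534 in those of Red beauty, 682, 659.9 and 1305 in those of Longshu No.7, and 858.1, 1426 and 1489 in those of LK99. Every cultivar overlapped every other.

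miR9470-y, another name from tomato, had 612, 428 and 694 CPM in the Black kingkong libraries, 265, 366 and 330.2 in those of Red beauty, 694, 373 and 735 in those of Longshu No.7, and 768, 314 and 259.9 in those of LK99. Red beauty lay below all libraries of Black kingkong and Longshu No.7, while LK99 alone ranged from 259.9 to 768. miR5168-y had 226, 229 and 278 CPM in the Black kingkong libraries, 288, 181 and 504 in those of Red beauty, 304, 177 and 211 in those of Longshu No.7, and 195, 204 and 211 in those of LK99. miR5139-x had 103, 89.9 and 184 CPM in the Black kingkong libraries, 136, 93.1 and 110.3 in those of Red beauty, 91.7, 80.4 and 106 in those of Longshu No.7, and 49.3, 61.8 and 118 in those of LK99. None of these 5 passed the test for a difference among the 4 cultivars (edgeR's quasi-likelihood F-test, Benjamini-Hochberg adjusted p = 0.072 for miR894-x, 0.37 for miR1919-y, 0.18 for miR9470-y, 0.29 for miR5168-y and 0.29 for miR5139-x). For each, the largest fitted difference between 2 cultivars is given as a log2 fold change. It was 0.80 (SE 0.28) for miR894-x and 0.55 (SE 0.31) for miR1919-y, both for Black kingkong over Longshu No.7. For miR9470-y it was -0.91 (SE 0.39) for Red beauty over Longshu No.7. For miR5139-x it was 0.72 (SE 0.36) for Black kingkong over LK99, and for miR5168-y 0.68 (SE 0.33) for Red beauty over LK99. With replicate 3 of Longshu No.7 and LK99 left out, miR894-x (adjusted p = 0.0041), miR1919-y (0.024) and miR5139-x (0.0084) did pass.

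Of the 6 members with the highest mean level, miR10533-x alone passed. miR10533-x had 80.9, 86.8 and 75.2 CPM in the Black kingkong libraries, 51.3, 45.8 and 45.9 in those of Red beauty, 48.5, 64.0 and 73.7 in those of Longshu No.7, and 126, 136 and 70.8 in those of LK99. Red beauty was low and even, with 51.3 CPM in its highest library, and lay below all libraries of Black kingkong and LK99, while Longshu No.7 overlapped Red beauty and LK99. The F-test gave an adjusted p of 0.011, and Red beauty differed from LK99 by a log2 fold change of -1.22 (SE 0.28). The call was lost without LK99 replicate 1 (adjusted p = 0.054).

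**Figure D1:**
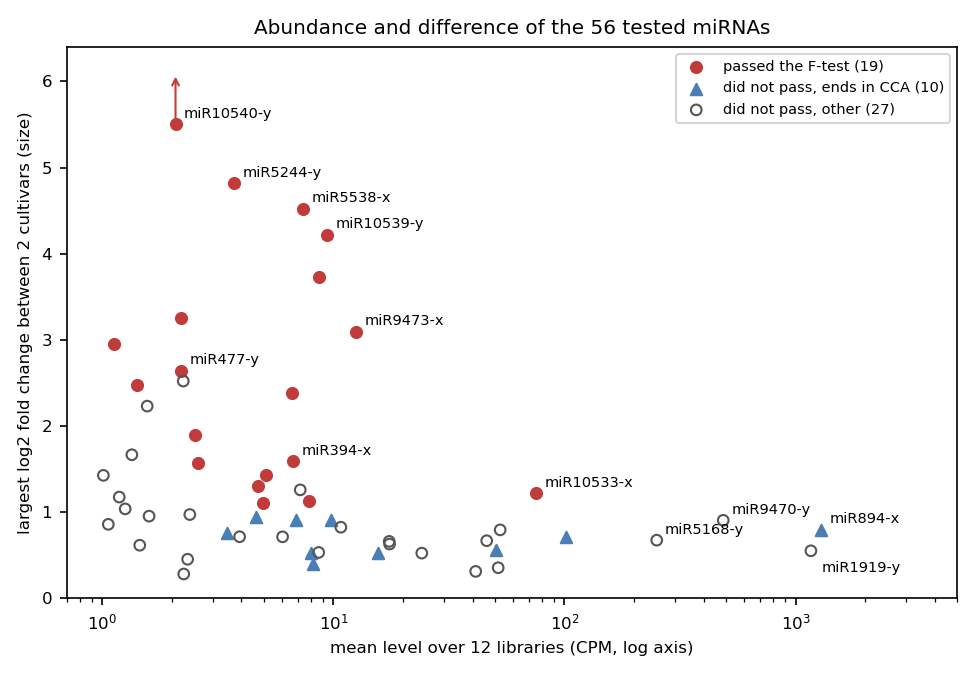
Mean level over the 12 libraries (x axis, CPM, log axis) against the size of the largest fitted log2 fold change between 2 cultivars (y axis) for the 56 tested members. Filled circles are the 19 that passed the F-test, triangles the 10 that end in CCA and open circles the other 27. The point of miR10540-y is drawn at the log2 of its bound, 5.51, with an arrow, since Black kingkong had 0 counts. Members with large differences had low levels, and miR894-x and miR1919-y, the most abundant, lie below 1 on the y axis.

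Of the 65 members, 56 passed the filter on low counts and entered the test with the rest of the table. A difference among the 4 cultivars was called for 19 of the 56 (33.9%), while 58.9% of all 1349 tested entries were called. Members thus passed less often than the table as a whole, a comparison given as a description. DESeq2 also called 19, and 22 had an unadjusted p under 0.05 in edgeR. The 19 had a median total of 391 counts, the 37 tested and not called 616 and the 9 not tested 62. Among the 19, Black kingkong had the highest mean for 5, Red beauty for 6, Longshu No.7 for 4 and LK99 for 4, while Black kingkong had the lowest for 6, Red beauty for 3, Longshu No.7 for 5 and LK99 for 5. No cultivar was thus the high or the low one for most of them. Of the 19, 11 kept an adjusted p under 0.05 whichever library was left out, and 17 were also called without replicate 3 of Longshu No.7 and LK99.

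**Figure D2:**
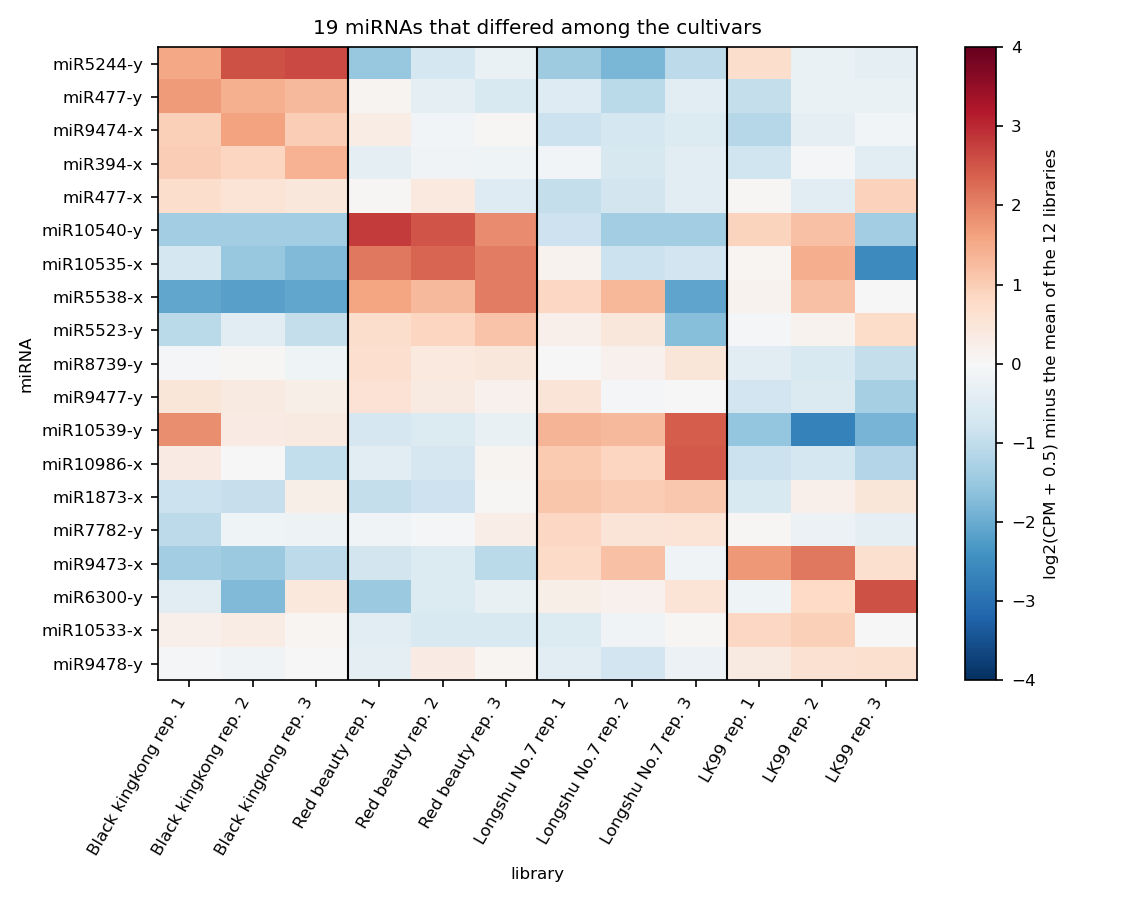
Level of the 19 members that passed the F-test (down the page) in each of the 12 libraries (across, by cultivar), as log2 of CPM plus 0.5 with the mean over the 12 libraries taken off. The 3 libraries of Black kingkong stand out as high for miR5244-y, miR477-y, miR394-x and miR9474-x, and those of Red beauty for miR10535-x and miR10540-y.

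Names with known mRNA targets in other plants came from a list that holds 4 members, and 3 of them passed, while 58.9% of all tested entries did. The listed members were highest in Black kingkong: the 4 summed to 27.4 ± 1.72 CPM there, against 11.6 ± 1.89 for Red beauty, 8.64 ± 1.10 for Longshu No.7 and 12.3 ± 3.19 for LK99 (SD, n = 3). The family of miR394 targets the F-box protein LCR in Arabidopsis, where it acts in shoot meristem maintenance. Whether miR394-x has this target was not tested. The potato entry stu-miR384-5p shares a run of 18 nt with it and has a total of 36134 counts, against 521 for miR394-x. As deposited, stu-miR384-5p was not highest in Black kingkong, so the values of miR394-x do not speak for all such sequences. miR394-x had 12.0, 11.2 and 16.1 CPM in the Black kingkong libraries, 4.36, 5.34 and 5.16 in those of Red beauty, 5.44, 3.62 and 4.12 in those of Longshu No.7, and 3.14, 5.68 and 4.17 in those of LK99. Black kingkong lay above all other libraries and the other cultivars overlapped. The F-test gave an adjusted p of 0.0012, with a log2 fold change of 1.60 (SE 0.32) for Black kingkong over LK99. Sequences of miR477 have been reported to target GRAS transcription factors in other plants. Members entered the list by number alone. miR477-y and miR477-x are different sequences with different seeds, and no target of either was tested here. miR477-y had 6.48, 5.29 and 4.80 CPM in the Black kingkong libraries, 1.85, 1.14 and 0.922 in those of Red beauty, 1.01, 0.517 and 1.08 in those of Longshu No.7, and 0.604, 1.31 and 1.30 in those of LK99. No Black kingkong library was below 4.80 CPM and no other library above 1.85, with an adjusted p of 0.00017 and a log2 fold change of 2.64 (SE 0.42) over Longshu No.7.

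miR477-x, the other entry with that number, had 7.84, 7.05 and 6.51 CPM in the Black kingkong libraries, 4.86, 6.30 and 3.14 in those of Red beauty, 2.15, 2.59 and 3.25 in those of Longshu No.7, and 4.83, 3.35 and 9.25 in those of LK99. Black kingkong lay above Red beauty and Longshu No.7 in every library and overlapped LK99. Its adjusted p was 0.048, with a log2 fold change of 1.43 (SE 0.42) for Black kingkong over Longshu No.7. The call was lost when any of 9 libraries was left out, all but Longshu No.7 replicate 3 and LK99 replicates 2 and 3, with adjusted p up to 0.14. miR1446-x, a name from poplar, had 2.30, 1.91 and 0.685 CPM in the Black kingkong libraries, 0.503, 0.763 and 0.553 in those of Red beauty, 0.379, 0.690 and 1.08 in those of Longshu No.7, and 1.21, 0.874 and 1.17 in those of LK99. It did not pass (adjusted p = 0.11), though it did without Black kingkong replicate 3 (0.037), the lowest Black kingkong library. The potato entry stu-miR477a-5p shares a run of 18 nt with miR477-x, whose counts relative to stu-miR477a-5p were 80.0% ± 10.5 for Black kingkong, 128% ± 63.6 for Red beauty, 73.3% ± 67.5 for Longshu No.7 and 54.9% ± 17.8 for LK99 (SD, n = 3).

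Names first given in tomato or close relatives formed the largest list, with 22 members, of which 20 were tested and 8 passed (58.9% of all tested entries did). miR9473-x had 2.97, 2.79 and 3.94 CPM in the Black kingkong libraries, 5.03, 5.72 and 3.87 in those of Red beauty, 15.2, 20.2 and 7.80 in those of Longshu No.7, and 30.3, 39.0 and 13.8 in those of LK99. No library of Black kingkong or Red beauty was above 5.72 CPM and none of Longshu No.7 or LK99 below 7.80, and within each of these pairs the cultivars overlapped. The adjusted p was 0.00017, and the log2 fold change of Black kingkong over LK99 was -3.10 (SE 0.45). miR10539-y had 21.8, 7.20 and 7.36 CPM in the Black kingkong libraries, 3.36, 3.63 and 4.43 in those of Red beauty, 15.2, 14.5 and 31.9 in those of Longshu No.7, and 1.57, 0.437 and 1.17 in those of LK99. LK99 was lowest and separate from all others, Red beauty came next and was also separate, and Black kingkong and Longshu No.7 overlapped. Longshu No.7 exceeded LK99 by a log2 fold change of 4.22 (SE 0.58), with an adjusted F-test p of 0.00019. 

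miR10540-y had 0, 0 and 0 CPM in the Black kingkong libraries, 8.72, 7.06 and 4.43 in those of Red beauty, 0.253, 0 and 0 in those of Longshu No.7, and 1.93, 2.48 and 0 in those of LK99. It had 0 counts over Black kingkong, 113 over Red beauty, 2 over Longshu No.7 and 33 over LK99. A count of 0 over the 3 libraries of Black kingkong allows a level of up to 0.150 CPM (3 counts over the cultivar), so Red beauty was at least 45.4-fold and LK99 at least 9.66-fold higher than Black kingkong. Red beauty exceeded Longshu No.7 by a ratio of 62.3 with a counting interval of 16.8 to 521 (95%, exact binomial), and the F-test gave an adjusted p of 0.00064. LK99 replicate 3 had 0 counts while the other LK99 libraries had 1.93 and 2.48 CPM. Without replicate 3 of Longshu No.7 and LK99 the adjusted F-test p of miR10540-y was 1.7e-07. miR10535-x had 2.70, 1.32 and 1.03 CPM in the Black kingkong libraries, 22.1, 25.6 and 21.2 in those of Red beauty, 5.31, 2.41 and 2.60 in those of Longshu No.7, and 5.07, 13.8 and 0.391 in those of LK99. Red beauty lay above all others in every library, and LK99 ranged from 0.391 CPM in replicate 3 to 13.8 in replicate 2. Black kingkong differed from Red beauty by a log2 fold change of -3.74 (SE 0.82), with an adjusted F-test p of 0.0041. Without replicate 3 of Longshu No.7 and LK99 these were -3.72 and 1.2e-06.

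miR9474-x had 2.16, 3.67 and 2.23 CPM in the Black kingkong libraries, 1.17, 0.763 and 0.922 in those of Red beauty, 0.253, 0.345 and 0.433 in those of Longshu No.7, and 0.121, 0.583 and 0.781 in those of LK99. Black kingkong was separate from all others, and Longshu No.7 had the lowest mean (adjusted p = 0.0014, log2 fold change of Black kingkong over Longshu No.7 2.95, SE 0.58). miR9477-y had 3.51, 3.23 and 2.91 CPM in the Black kingkong libraries, 3.86, 3.24 and 2.77 in those of Red beauty, 3.67, 2.24 and 2.38 in those of Longshu No.7, and 1.21, 1.46 and 0.651 in those of LK99. LK99 was below every other library (adjusted p = 0.011, log2 fold change of Red beauty over LK99 1.57, SE 0.38), but without LK99 replicate 3, its lowest library, the call was lost (adjusted p = 0.084). miR9478-y had 4.46, 4.26 and 4.80 CPM in the Black kingkong libraries, 3.52, 6.11 and 4.98 in those of Red beauty, 3.41, 2.59 and 3.90 in those of Longshu No.7, and 6.16, 7.43 and 7.68 in those of LK99. LK99 was above every other library, by a small margin over Red beauty (adjusted p = 0.046, log2 fold change of Longshu No.7 over LK99 -1.10, SE 0.32). The call of miR9478-y was lost when any of 9 libraries was left out, all but Red beauty replicates 1 and 2 and Longshu No.7 replicate 3, with adjusted p up to 0.12. Together with miR10533-x these are the 8.

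The other tomato-named members did not pass. miR1919-x had 38.1, 48.8 and 50.7 CPM in the Black kingkong libraries, 42.3, 40.5 and 50.4 in those of Red beauty, 30.3, 26.2 and 52.5 in those of Longshu No.7, and 60.7, 49.7 and 62.8 in those of LK99. miR10528-x had 42.2, 45.2 and 46.2 CPM in the Black kingkong libraries, 56.5, 59.7 and 44.1 in those of Red beauty, 52.1, 41.0 and 78.0 in those of Longshu No.7, and 62.5, 43.6 and 48.7 in those of LK99. miR10532-y, a sequence also listed as miR7981-y of an excluded family, had 52.1, 47.0 and 40.4 CPM in the Black kingkong libraries, 43.1, 41.4 and 38.2 in those of Red beauty, 45.9, 44.5 and 30.3 in those of Longshu No.7, and 41.7, 36.4 and 34.3 in those of LK99. The libraries of all cultivars overlapped for these 3, with adjusted p of 0.25, 0.69 and 0.70, and without replicate 3 of Longshu No.7 and LK99 miR1919-x passed (0.022). miR5303-y had 21.1, 20.6 and 19.4 CPM in the Black kingkong libraries, 13.9, 10.5 and 14.9 in those of Red beauty, 19.3, 15.7 and 21.2 in those of Longshu No.7, and 16.8, 16.9 and 19.7 in those of LK99. miR9472-x had 21.3, 21.6 and 26.5 CPM in the Black kingkong libraries, 17.3, 15.8 and 15.7 in those of Red beauty, 13.5, 17.2 and 16.3 in those of Longshu No.7, and 10.8, 11.5 and 21.6 in those of LK99. miR1916-x had 9.73, 9.84 and 11.8 CPM in the Black kingkong libraries, 14.1, 10.9 and 16.05 in those of Red beauty, 12.9, 10.2 and 10.6 in those of Longshu No.7, and 7.97, 7.72 and 7.42 in those of LK99. Red beauty lay below every other library for miR5303-y and LK99 below every other library for miR1916-x, but the adjusted p was 0.18 for miR5303-y, 0.20 for miR9472-x and 0.087 for miR1916-x. With those same replicates 3 left out, miR9472-x passed (0.0088).

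At lower levels, miR10534-x had 5.94, 6.61 and 6.17 CPM in the Black kingkong libraries, 4.86, 4.77 and 4.61 in those of Red beauty, 4.17, 3.45 and 4.99 in those of Longshu No.7, and 4.95, 2.62 and 2.08 in those of LK99. miR10536-y had 3.38, 2.498 and 2.23 CPM in the Black kingkong libraries, 1.51, 1.91 and 1.66 in those of Red beauty, 3.03, 2.93 and 4.12 in those of Longshu No.7, and 1.81, 2.04 and 1.56 in those of LK99. miR9472-y had 2.70, 0.881 and 2.74 CPM in the Black kingkong libraries, 1.01, 1.14 and 1.11 in those of Red beauty, 0.885, 1.90 and 0.433 in those of Longshu No.7, and 2.30, 1.02 and 3.00 in those of LK99. The adjusted p was 0.14 for miR10534-x, 0.050 for miR10536-y, just above the threshold, and 0.24 for miR9472-y. miR1918-x had 1.22, 1.47 and 2.23 CPM in the Black kingkong libraries, 1.85, 1.34 and 1.84 in those of Red beauty, 2.02, 0.690 and 1.52 in those of Longshu No.7, and 1.33, 0.874 and 1.04 in those of LK99, with an adjusted p of 0.57. Entries miR9471-y and miR10531-x had too few counts for the test. miR9471-y had 0.676, 0.441 and 1.88 CPM in the Black kingkong libraries, 1.17, 0.572 and 1.48 in those of Red beauty, 1.26, 0.517 and 2.17 in those of Longshu No.7, and 1.09, 0.728 and 0.651 in those of LK99. miR10531-x had 0.811, 0.881 and 1.71 CPM in the Black kingkong libraries, 0, 0.572 and 0.369 in those of Red beauty, 1.26, 1.21 and 1.08 in those of Longshu No.7, and 0.483, 1.02 and 1.56 in those of LK99. For miR9471-y all cultivars overlapped, and for miR10531-x Red beauty lay below Black kingkong and Longshu No.7.

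The remaining 8 members that passed carry names from other plants for which no role is given here. miR5244-y had 6.48, 13.5 and 14.4 CPM in the Black kingkong libraries, 0.336, 0.954 and 1.48 in those of Red beauty, 0.379, 0.172 and 0.650 in those of Longshu No.7, and 3.38, 1.46 and 1.30 in those of LK99. Black kingkong was separate from all others and LK99 stood next, above all Longshu No.7 libraries. The adjusted p was 5.6e-05, the lowest of the members, with a log2 fold change of 4.82 (SE 0.64) for Black kingkong over Longshu No.7. miR5538-x had 0.676, 0.588 and 0.685 CPM in the Black kingkong libraries, 14.3, 11.6 and 20.1 in those of Red beauty, 8.34, 11.9 and 0.650 in those of Longshu No.7, and 4.95, 10.6 and 4.56 in those of LK99. Black kingkong was low and even at 0.649 ± 0.0537 CPM (SD, n = 3), but Longshu No.7 replicate 3 was as low as Black kingkong while the other Longshu No.7 libraries had 8.34 and 11.9 CPM. The fitted log2 fold change of Black kingkong over Red beauty was -4.52 (SE 0.78), and the F-test gave an adjusted p of 0.0022. Without replicate 3 of Longshu No.7 and LK99 these were -4.52 and 2.5e-07.

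miR10986-x had 2.03, 1.47 and 0.514 CPM in the Black kingkong libraries, 1.01, 0.763 and 1.66 in those of Red beauty, 3.67, 3.10 and 10.4 in those of Longshu No.7, and 0.604, 0.728 and 0.391 in those of LK99. Longshu No.7 was above all others, and its replicate 3 was the highest library. It held 95 of the 155 counts of miR10986-x, which passed the filter on low counts only through that cultivar. The adjusted p was 0.0013 and the log2 fold change of Longshu No.7 over LK99 was 3.25 (SE 0.60), which was 2.53 without Longshu No.7 replicate 3 and 2.33 without that library and LK99 replicate 3. miR5523-y had 0.270, 0.735 and 0.343 CPM in the Black kingkong libraries, 2.18, 2.48 and 3.14 in those of Red beauty, 1.39, 1.72 and 0 in those of Longshu No.7, and 1.09, 1.31 and 2.21 in those of LK99. Black kingkong was below Red beauty and LK99 in every library (adjusted p = 0.041, log2 fold change of Black kingkong over Red beauty -2.48, SE 0.70), and Longshu No.7 replicate 3 had none. That call was lost when any of 8 libraries was left out, all but Longshu No.7 replicates 2 and 3 and LK99 replicates 1 and 3, with adjusted p up to 0.13. miR8739-y had 4.32, 4.70 and 3.94 CPM in the Black kingkong libraries, 7.38, 6.11 and 6.27 in those of Red beauty, 4.42, 5.17 and 6.502 in those of Longshu No.7, and 3.14, 2.77 and 2.08 in those of LK99. LK99 was below every other library (adjusted p = 0.016, log2 fold change of Red beauty over LK99 1.30, SE 0.31), though not past the threshold without LK99 replicate 3 (0.067).

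miR6300-y had 3.38, 1.03 and 6.51 CPM in the Black kingkong libraries, 1.34, 3.05 and 3.69 in those of Red beauty, 5.56, 5.35 and 7.15 in those of Longshu No.7, and 4.11, 8.45 and 29.7 in those of LK99. The high level in LK99 was that of replicate 3, and the adjusted p of 0.031 with a log2 fold change of -2.39 (SE 0.73) for Red beauty over LK99 changed to 0.19 and -1.30 without it. The call of miR6300-y was also lost without Black kingkong replicate 1 or Red beauty replicate 1 or 2. The remaining 2 of the 8, miR7782-y and miR1873-x, hold the core of miR845 and are described with it.

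**Figure D3:**
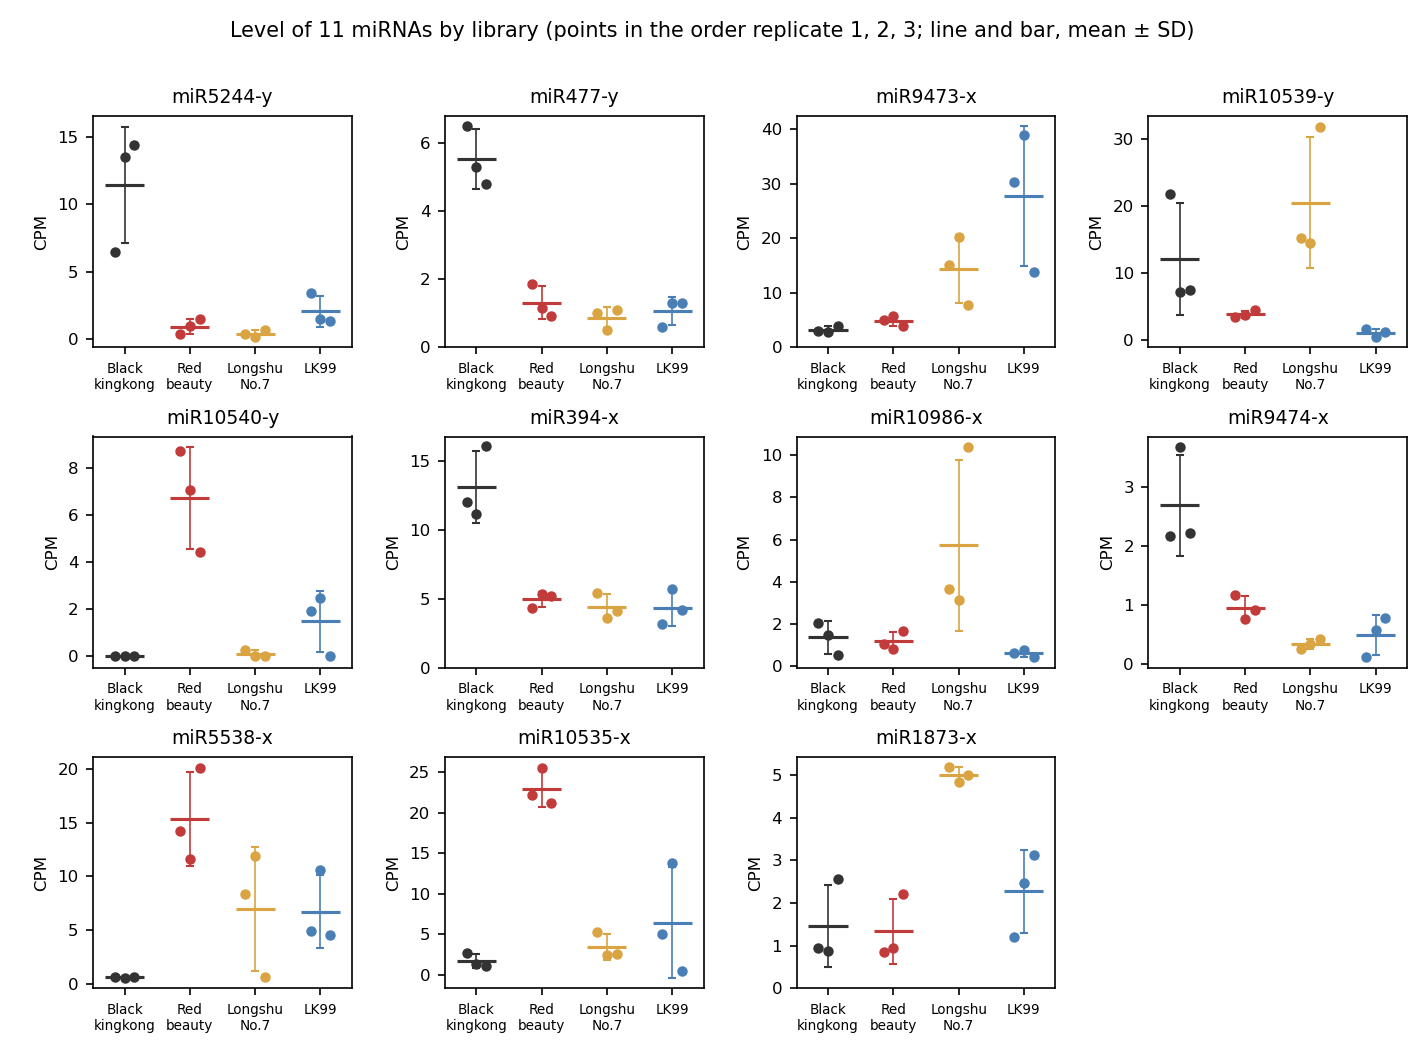
Level in each library (points, CPM) of members that passed the F-test, by cultivar, with the mean ± SD (n = 3). Only the 11 that passed whichever library was left out are drawn. Black kingkong is separate and high for miR5244-y, miR477-y and miR394-x, and Red beauty is separate and high for miR10535-x.

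None of the 10 members that end in CCA passed in edgeR or DESeq2, while 58.9% of all tested entries passed in edgeR. Only 1 of the 10, miR894-x, had an unadjusted p under 0.05 in edgeR. With the replicate number as a block in the fit, miR894-x did pass, alone of the 10. Without replicate 3 of Longshu No.7 and LK99, when 67.4% of all tested entries passed in edgeR, 3 of the 10 did: miR894-x (0.0041), miR5139-x (0.0084) and miR5072-x (0.032). Summed, they had 1536, 1864 and 2801 CPM in Black kingkong, 1456, 1193 and 1617 in Red beauty, 993, 1065 and 1618 in Longshu No.7, and 1034, 1266 and 1608 in LK99. Replicate 3 held the highest sum in 4 of 4 cultivars, and the libraries of the cultivars overlapped. They hold 38.4% of the members' counts, most of it in miR894-x. Without that member the sums were 253 ± 103 CPM for Black kingkong, 218 ± 32.0 for Red beauty, 183 ± 43.4 for Longshu No.7 and 182 ± 55.4 for LK99 (SD, n = 3).

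Within this set, miR8175-y had 42.4, 47.2 and 83.4 CPM in the Black kingkong libraries, 53.3, 43.5 and 53.1 in those of Red beauty, 41.6, 26.2 and 49.0 in those of Longshu No.7, and 47.5, 48.7 and 71.8 in those of LK99. miR5072-x had 7.03, 8.96 and 21.9 CPM in the Black kingkong libraries, 10.6, 7.06 and 17.0 in those of Red beauty, 5.06, 4.66 and 14.3 in those of Longshu No.7, and 6.403, 6.85 and 6.90 in those of LK99. miR5077-x had 7.57, 7.79 and 12.5 CPM in the Black kingkong libraries, 6.21, 7.25 and 9.22 in those of Red beauty, 4.80, 6.38 and 8.24 in those of Longshu No.7, and 7.73, 7.58 and 10.4 in those of LK99. In Black kingkong, Longshu No.7 and LK99 all 3 were highest in replicate 3, and their adjusted p was 0.41, 0.34 and 0.50. The longer miR5077-x had 0.515% ± 0.0485 of the counts of miR894-x in Black kingkong, 0.631% ± 0.107 for Red beauty, 0.624% ± 0.0572 for Longshu No.7 and 0.772% ± 0.0950 for LK99 (SD, n = 3).

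**Figure D4:**
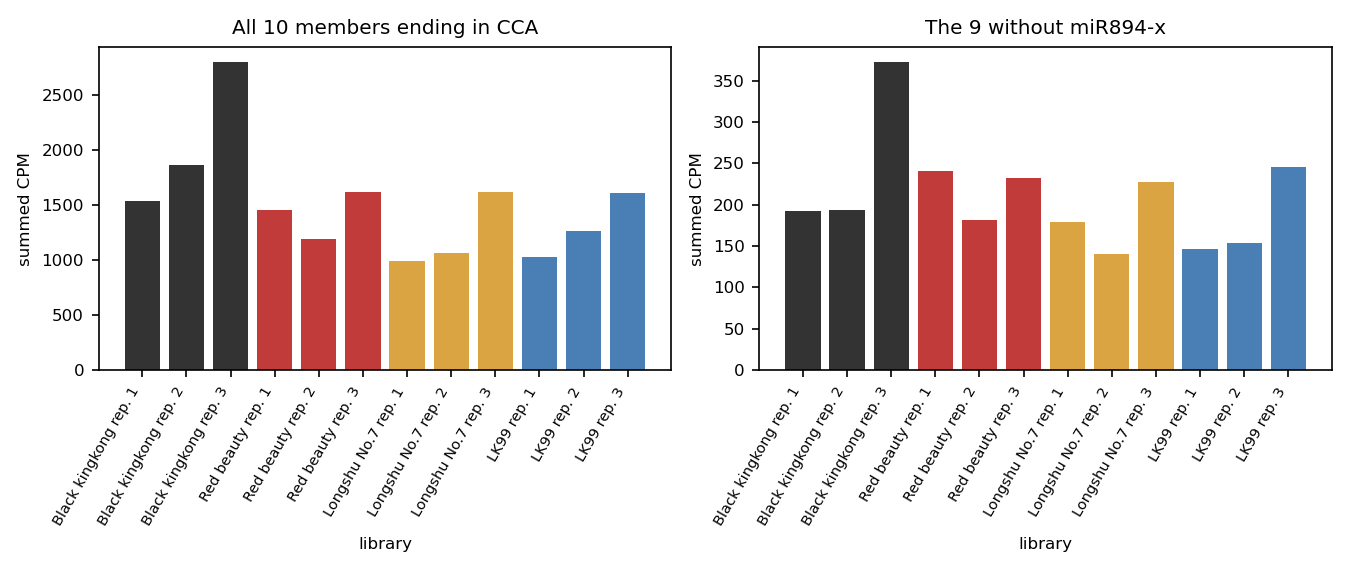
Summed level (y axis, CPM) of the 10 members that end in CCA (left) and of the 9 without miR894-x (right), with 1 bar per library, by cultivar. On the left the bars run from 993 in Longshu No.7 replicate 1 to 2801 in Black kingkong replicate 3, and replicate 3 is the highest bar of every cultivar; on the right this holds except in Red beauty.

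Names described elsewhere as fragments of rRNA or tRNA made a list with 7 members, which overlaps the CCA group in 5. All 7 were tested and 1, miR6300-y, passed, against 58.9% of all tested entries. miR6478-x had 24.6, 26.3 and 73.5 CPM in the Black kingkong libraries, 42.8, 30.5 and 62.0 in those of Red beauty, 28.8, 46.7 and 81.5 in those of Longshu No.7, and 56.1, 59.9 and 99.6 in those of LK99, with an adjusted p of 0.43. As for the CCA group, its highest library within each cultivar was replicate 3. The summed level of the list was 2065 ± 666 CPM for Black kingkong, 1433 ± 224 for Red beauty, 1247 ± 359 for Longshu No.7 and 1355 ± 323 for LK99 (SD, n = 3), most of it miR894-x.

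The members with the core of miR845 took different courses. Of the 7 that were tested, 2 passed, against 58.9% of all tested entries. miR7782-y had 3.38, 6.61 and 6.34 CPM in the Black kingkong libraries, 6.71, 7.06 and 9.04 in those of Red beauty, 13.7, 10.9 and 11.1 in those of Longshu No.7, and 7.73, 6.26 and 5.73 in those of LK99. miR1873-x had 0.946, 0.881 and 2.57 CPM in the Black kingkong libraries, 0.839, 0.954 and 2.21 in those of Red beauty, 5.18, 4.83 and 4.99 in those of Longshu No.7, and 1.21, 2.48 and 3.13 in those of LK99. Longshu No.7 was above all other libraries for both. miR7782-y holds the core and miR1873-x its reverse complement, and their match runs on beyond the core. All of miR7782-y but its first letters lies in the reverse complement of miR1873-x. The adjusted p was 0.034 for miR7782-y, with a log2 fold change of -1.13 (SE 0.32) for Black kingkong over Longshu No.7, and 0.012 for miR1873-x, with -1.90 (SE 0.51) for Red beauty over Longshu No.7. The call of miR7782-y was lost without Black kingkong replicate 1, Red beauty replicate 1 or 2, or Longshu No.7 replicate 1 or 2, with adjusted p up to 0.13. The sum of all 8 was 147 ± 51.8 CPM for Black kingkong, 135 ± 19.1 for Red beauty, 128 ± 10.6 for Longshu No.7 and 99.0 ± 37.1 for LK99 (SD, n = 3), most of it miR5139-x. miR845-z, with too few counts for the test, had 1.49, 1.18 and 0.685 CPM in the Black kingkong libraries, 0.336, 0.191 and 1.11 in those of Red beauty, 0.632, 0.517 and 0.650 in those of Longshu No.7, and 0.362, 0.583 and 0 in those of LK99.

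Of the 7 members with GAGGGA or TCCCTC, 5 were tested and 1, miR477-x, passed (58.9% of all tested entries did). Their summed level was 34.5 ± 3.41 CPM for Black kingkong, 35.5 ± 8.01 for Red beauty, 38.7 ± 2.23 for Longshu No.7 and 37.2 ± 8.66 for LK99 (SD, n = 3), so that the cultivar means differed by less than the spread within Red beauty. The nested miR5205-x had 10.8% ± 2.32 of the counts of miR5049-y in Black kingkong, 11.2% ± 2.29 for Red beauty, 9.81% ± 2.74 for Longshu No.7 and 7.47% ± 3.47 for LK99 (SD, n = 3).

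Some members are close to other entries of the table. Read in the same direction, a run of at least 15 nt is shared with another sequence by 18 of the 65, with potato-named sequences for 6, predicted ones for 11 and others with names from other species for 13. A run of 17 nt joins miR5168-y with miR166-y, the most abundant entry of the series, and its counts were 0.0273% ± 0.00197 of those of miR166-y in Black kingkong, 0.0299% ± 0.0125 for Red beauty, 0.0248% ± 0.0101 for Longshu No.7 and 0.0289% ± 0.00197 for LK99 (SD, n = 3). These shares differed by less than the spread between replicates of Red beauty. The miR166 family targets HD-ZIP III transcription factors, which set organ polarity.

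Both miR1919 entries share 20 nt with the potato entries of that number. For miR1919-y the counts were 42.2% ± 2.85 of those of stu-miR1919-3p in Black kingkong, 51.8% ± 5.23 for Red beauty, 35.0% ± 15.97 for Longshu No.7 and 54.6% ± 9.33 for LK99 (SD, n = 3). For miR1919-x they were 9.83% ± 0.957 of those of stu-miR1919-5p in Black kingkong, 9.02% ± 1.20 for Red beauty, 6.43% ± 1.21 for Longshu No.7 and 8.82% ± 1.17 for LK99. The high level of miR394-x in Black kingkong was also seen relative to stu-miR384-5p, with which it shares 18 nt: its counts were 2.98% ± 0.233 of those of stu-miR384-5p in Black kingkong, 1.46% ± 0.242 for Red beauty, 0.820% ± 0.326 for Longshu No.7 and 0.877% ± 0.287 for LK99 (SD, n = 3). The far more counted stu-miR384-5p was itself not highest in Black kingkong. As deposited, stu-miR384-5p had 2843, 2803 and 3035 counts in the Black kingkong libraries and 1669, 1705 and 2357 in those of Red beauty. Its counts were 3919, 2332 and 4119 in the Longshu No.7 libraries, and 3990, 3251 and 4111 in those of LK99. The authors' counting of near-identical entries is not known from the sources used here, so counts could be split between them.

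The cultivars were then compared in pairs, with the same fit and with p-values adjusted over all tested entries in each pair. The pairs share cultivars, so their calls are not independent. Black kingkong against LK99 gave 7 members higher and 4 lower of 56, while 12.5% of all tested entries were higher and 18.8% lower (31.2% in either direction). The higher ones were miR5244-y, miR477-y, miR394-x, miR9474-x, miR9477-y, miR6284-y and miR10539-y, and the lower ones miR9473-x, miR5538-x, miR6300-y and miR10540-y. The median log2 fold change was 0.23 over the members and -0.06 over all tested entries. Red beauty against LK99 gave 5 higher and 3 lower, against 14.3% and 19.2% of all tested entries (33.5% in either direction). The higher ones were miR1916-x, miR8739-y, miR9477-y, miR10539-y and miR10540-y, the lower ones miR9473-x, miR6300-y and miR10533-x, and the medians were 0.16 and 0.00.

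Longshu No.7 against LK99 gave 4 higher (miR8739-y, miR9477-y, miR10986-x and miR10539-y) and 2 lower (miR5244-y and miR9478-y), against 8.23% higher and 10.1% lower of all tested entries (18.3% in either direction), with medians of 0.10 over members and 0.02 over all. Scaled by library size alone, the medians of all tested entries moved by -0.33, -0.51 and -0.36 in these 3 comparisons, and the members split 6 higher and 8 lower for Black kingkong, 0 and 8 for Red beauty and 2 and 8 for Longshu No.7, each over LK99. DESeq2 gave 7 and 4 for Black kingkong, 4 and 3 for Red beauty and 2 and 4 for Longshu No.7 over LK99, so its split turned round only in the comparison with Longshu No.7.

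Black kingkong against Longshu No.7 gave 6 higher and 6 lower, against 14.7% and 19.6% of all tested entries (34.3% in either direction), with medians of 0.10 over members and -0.14 over all. The higher ones were miR894-x, miR477-x, miR477-y, miR394-x, miR9474-x and miR5244-y, and the lower ones miR5538-x, miR9473-x, miR10986-x, miR1873-x, miR11126-y and miR7782-y. Black kingkong against Red beauty also gave 6 higher (miR10533-x, miR394-x, miR9474-x, miR10539-y, miR477-y and miR5244-y) and 6 lower (miR10540-y, miR5538-x, miR10535-x, miR11602-y, miR5523-y and miR6485-x), against 20.3% and 21.8% of all tested entries (42.1% in either direction), with medians of 0.12 and 0.00. Scaled by library size alone, that split was 9 higher and 5 lower, with a shift of all entries by 0.17. Red beauty against Longshu No.7 gave 2 higher (miR10535-x and miR10540-y) and 4 lower (miR10539-y, miR10986-x, miR1873-x and miR9473-x), against 10.3% and 13.7% of all tested entries (24% in either direction), with medians of 0.08 and -0.06. In all 3 comparisons of Black kingkong with another cultivar miR5244-y, miR477-y, miR394-x and miR9474-x were higher and miR5538-x was lower. Among all these pairwise calls, miR894-x, miR1916-x, miR6284-y, miR11126-y, miR11602-y and miR6485-x had not passed the F-test.

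Without replicate 3 of Longshu No.7 and LK99, the F-test called 26 members and 67.4% of all 1349 entries, so calls were more frequent over the whole table too. The pairs with LK99 then gave 10 members higher and 7 lower for Black kingkong (39.9% of all entries called), 8 and 2 for Red beauty (39.3%) and 3 and 6 for Longshu No.7 (25.8%). The other pairs gave 12 and 9 for Black kingkong over Longshu No.7 (43.8%), 5 and 5 for Red beauty over Longshu No.7 (34.8%) and 10 and 6 for Black kingkong over Red beauty (49.7%). Of the 19 members called with all libraries, miR6300-y (adjusted p = 0.15) and miR9478-y (0.061) were then not called.

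The members with the lowest totals lie just above the limit of 50 counts that chose them. They are miR5532-y with 57, miR9726-y with 53 and miR845-z with 50 counts, and the entries just below it were miR9477-x with 46, miR5141-y with 43 and miR5658-x with 43. miR5532-y had 0, 0 and 0.171 CPM in the Black kingkong libraries, 1.51, 0.954 and 0.738 in those of Red beauty, 1.64, 1.55 and 0.217 in those of Longshu No.7, and 0.967, 0.437 and 0.521 in those of LK99. Black kingkong had 1 count of it in all, against 18 for Red beauty, 23 for Longshu No.7 and 15 for LK99, and it did not enter the test. miR9726-y had 0.270, 0.588 and 0.343 CPM in the Black kingkong libraries, 0.839, 0.191 and 0.922 in those of Red beauty, 0.885, 0.862 and 1.08 in those of Longshu No.7, and 0.967, 0.146 and 1.04 in those of LK99. In all, 9 members failed the filter on low counts, and the 21 members without values of their own here had totals of 61 to 1890 counts and cultivar means of 0.433 to 28.5 CPM.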

How the data were processed

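The authors deposited whole-number counts per miRNA entry and library for 12 small RNA libraries, with the total over the libraries, per the file headers. A deposited length column (other) gives the length in nt, and further columns that the authors headed TPM were treated as a score: the counts of a library were divided by a number that for Black kingkong replicate 1 is 11.9 times the total of its counts and for the others 0.822 to 1.27 times. They served only as an alternative. No source used here states the read processing, the miRNA registry release or a genome build, so positions are left out.

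Counts of all entries were tested with edgeR 4.0.16 (filterByExpr, count of at least 10, total of at least 15, TMM scaling, quasi-likelihood F-test, 1 coefficient per cultivar, limma 3.58.1, R 4.3.3). This left 1349 entries, and p-values were Benjamini-Hochberg adjusted over them, with a threshold of 0.05. Depth was 5605168 to 7354483 counts. Because PCR copies are not independent molecules, intervals and floors hold counting error alone. Tested on simulated data for the F-test over 1349 entries, the fit recovered 16.4% of changes of 2-fold, 69.2% of 4-fold and 94.8% of 16-fold, and 4.20% of calls were false. In these 5 simulations a small part of the entries changed, in Black kingkong alone, and no library was made to stand apart. In the data 58.9% of the entries were called, so these shares need not hold there.

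Members, lists and tests were chosen with earlier results of these data known. Named with values were the 6 most abundant members, the members that passed the F-test, those in the lists, the 3 most counted ones that did not pass and the 3 with the lowest totals. The shared sequence features, the comparisons with near-identical entries, and miR6284-y, miR11126-y, miR11602-y and miR6485-x among the pairwise calls were chosen after values were seen. Deviations of same-numbered libraries over all tested entries correlated above 0.1 in 2 of 18 pairs, so the numbers were not taken as pairs. That check was over all tested entries and not for the CCA group alone, whose sum was highest in replicate 3 of every cultivar. Alternatives were DESeq2 1.42.0, other scalings and filters, merged entries and libraries left out.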

Additional observations from a re-analysis of the deposited data

How the results depend on the processing

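The number of members called in the F-test (19) and in the pairs Black kingkong over LK99 (11), Red beauty over LK99 (8), Longshu No.7 over LK99 (6), Black kingkong over Longshu No.7 (12), Red beauty over Longshu No.7 (6) and Black kingkong over Red beauty (12) depended on the filter, the values used and the libraries. With at least 10 CPM in 3 libraries the counts were, in that order, 9, 5, 4, 3, 5, 3 and 5, since fewer members were tested. With limma on the deposited scaled columns (log2, pseudocount 0.1) they were 11, 6, 2, 2, 5, 2 and 7. Leaving out 1 library gave 15 to 25 in the F-test and 8 to 16, 4 to 9, 2 to 8, 8 to 19, 3 to 8 and 7 to 14 in the pairs. Without replicate 3 of Longshu No.7 and LK99, Black kingkong over LK99 gave 17, Black kingkong over Longshu No.7 gave 21 and Red beauty over Longshu No.7 gave 10. Longshu No.7 over LK99 gave 10 with library size alone and 2 with only these cultivars in the fit. In the other cases the cause was not tested. The other counts were within 1.5 times those reported.

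Over 1143 member results, 1024 kept direction and side of the threshold, 62 were no longer past it, 38 were newly past it and 19 reversed. Of these, 16 reversed with the scaled columns, where 1 library was divided by a number far above its own total: the log2 fold change became -0.27 for miR894-x, -0.12 for miR6284-y, -0.38 for miR10534-x, -0.38 for miR5303-y, -0.74 for miR9472-x, -0.66 for miR845-x, -0.74 for miR5139-x, -0.70 for miR5072-x, -0.46 for miR1919-y, -0.37 for miR1886-y, -0.28 for miR8569-y, -0.51 for miR8175-y, -0.97 for miR1886-x, -0.50 for miR5077-x, -1.01 for miR5054-y and -1.17 for miR10532-y. None of these had passed the F-test. Members short of the threshold passed it, with the adjusted p in brackets at its lowest, without Longshu No.7 replicate 3 (miR11602-y, 0.0063; miR1919-x, 0.014; miR1919-y, 0.041), without LK99 replicate 1 (miR9470-y, 0.023; miR10534-x, 0.030), replicate 2 (miR10536-y, 0.046) or replicate 3 (miR9472-x, 0.043), without Black kingkong replicate 3 (miR1446-x, 0.037), and without any 1 of several: Longshu No.7 replicate 3 or LK99 replicate 1 (miR6284-y, 0.029), replicate 3 of either (miR6485-x, 0.021), or these 2 or Black kingkong replicate 1 (miR894-x, 0.016). With library size alone miR10532-y became -0.016, and miR6164-y ranged from -0.57 to 0.038 with 1 library left out, was 0.038 without Longshu No.7 replicate 3 and 0.031 without that library and LK99 replicate 3.

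Among 18 pairs of cultivars and replicate numbers, same-numbered libraries deviated together with r of -0.07 to 0.15, with 2 over 0.1, and 7 of 12 libraries correlated best with their own number. With the replicate number as a block, 16 members passed the F-test: miR7782-y (adjusted p = 0.052), miR5523-y (0.063), miR9478-y (0.065) and miR477-x (0.073) no longer did, and miR894-x (0.010) did. In the pairs the block gave 13, 9, 5, 12, 6 and 12 calls in the order Black kingkong, Red beauty and Longshu No.7 over LK99, Black kingkong and Red beauty over Longshu No.7, and Black kingkong over Red beauty. Members of a few CPM rest on few counts per library, and at that depth a small difference was not detectable.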
